A study of Rattus norvegicus with 20 samples.

Results

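Collagens are secreted proteins of the extracellular matrix whose chains wind around each other into a long helix. Here the genes of all collagen chains other than type IV, the type of basement membranes, were followed in heart and kidney. They were taken as the protein-coding genes of the deposited table whose symbol names a collagen chain, which gave 38 of 30560 genes; 6 type IV chains were left out. By the structure their proteins build, they fall into 11 fibrillar chains, 9 fibril-associated chains, 6 chains of the beaded filaments of type VI, 3 network-forming short chains, 1 anchoring fibril chain, 4 transmembrane chains, 2 multiplexins and 2 others.

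The study measured poly-A RNA in the left ventricle and the kidney cortex of 10 male rats that its title calls hypertensive. The strain is not named, and the genotype label is wild type. All rats received a blood pressure telemeter at 8 weeks of age and then ate a diet with 4% NaCl for 3 weeks. Through a subcutaneous osmotic minipump, 5 rats received Maresin 1 (MaR1), a lipid mediator that macrophages form from docosahexaenoic acid, and 5 received vehicle. The MaR1 dose was up to 1.3 µg/kg/day. With 1 library from each organ of a rat, there were 4 groups of 5 libraries: MaR1 hearts, vehicle hearts, MaR1 kidneys and vehicle kidneys. No group had a normal salt diet, so every comparison is between salt-fed rats. Separate rats were the replicates within a group.

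In fibrous tissue most collagen is type I, a trimer of chains from Col1a1 and Col1a2, mixed with type III from Col3a1. Fibroblasts are the main source in both organs. The chains are hydroxylated and folded in the endoplasmic reticulum, their ends are cut off after secretion, and lysyl oxidases then cross-link the fibrils. Accumulation of these fibrils, fibrosis, is a known feature of the heart and kidney in salt-loaded hypertensive rats.

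The libraries held 19.4 to 30.3 M (mega) fragments assigned to genes. At 1 FPKM (fragments per kilobase of gene, relative to a scaled size of the library), a gene of 1 kb had 19.7 to 34.9 fragments. Each organ held the markers of its label: the sum of 7 cardiomyocyte markers was 11718 to 20300 FPKM in hearts, against 0.433 to 1.47 FPKM in kidneys, and the sum of 9 genes of the proximal tubule was 2.53 to 61.9 FPKM in hearts, against 3996 to 8467 FPKM in kidneys. Some libraries stood apart. Among the kidneys, urothelial markers summed to over 1 FPKM in 3 MaR1 rats (RB036, RB038 and RB039, at 16, 32.1 and 87.2 FPKM) and in 1 vehicle rat (RB034, at 4.23 FPKM), and to 0.263 to 0.595 FPKM in the other 6. Adipocyte markers reached 519 FPKM in the MaR1 kidney of RB039, against 11.4 to 69.6 FPKM in the other kidneys. Among the hearts, the lowest cardiomyocyte sums were those of MaR1 rat RB035 (11718 FPKM) and vehicle rat RB033 (13065 FPKM). Myl7, which encodes a myosin light chain of the atria, was at 316 and 151 FPKM in the MaR1 hearts of RB035 and RB038 and at 784, 529 and 225 FPKM in the vehicle hearts of RB033, RB034 and RB031, but at 1.65 FPKM or less in the other 5 hearts, all of which are labelled as ventricle. In bulk tissue, fewer cells of a type and less RNA per cell cannot be told apart.

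To show the sequence in front of genes on which the results below turn, parts of their promoters are printed from RefSeq (build GRCr8). Col1a2 is the most abundant chain gene in the heart with an entry, Col18a1 the most abundant one in the kidney with an entry, and Col6a6 the gene whose MaR1 and vehicle kidneys did not overlap. Col1a1, Col3a1 and Col6a2 are named only. Capitals mark 3 motifs searched on both strands: the TATA box, spelled as TATAAA, the CCAAT box, which reads ATTGG on the other strand, and the GC box, spelled as GGGCGG and read as CCGCCC on the other strand. These motifs do not overlap each other in the printed lines. Each line runs 5′ to 3′ on the strand of the gene; for Col1a2 it holds the first 110 bases of the 250 before the annotated start, and for the others all 250.
Col1a2, chr4:33518307-33518416, plus strand: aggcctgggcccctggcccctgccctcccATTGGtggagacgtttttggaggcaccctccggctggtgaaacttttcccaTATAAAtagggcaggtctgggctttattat
Col18a1, chr20:11473395-11473644, plus strand: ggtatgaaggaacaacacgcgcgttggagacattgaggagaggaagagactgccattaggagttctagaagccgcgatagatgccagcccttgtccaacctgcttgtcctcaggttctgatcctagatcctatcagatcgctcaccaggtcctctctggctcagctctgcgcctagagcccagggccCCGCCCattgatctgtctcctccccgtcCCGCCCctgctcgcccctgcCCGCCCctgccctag
Col6a6, chr8:115352162-115352411, minus strand: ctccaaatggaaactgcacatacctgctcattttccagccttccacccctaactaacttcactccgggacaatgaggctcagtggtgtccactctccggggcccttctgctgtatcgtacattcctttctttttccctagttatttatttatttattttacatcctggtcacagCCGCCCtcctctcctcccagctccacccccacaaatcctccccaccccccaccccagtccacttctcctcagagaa
In Col1a2, ATTGG lay 221 bases and TATAAA 170 bases before the annotated start. Col18a1 had CCGCCC at 63, 35 and 15 bases before its start, and Col6a6 had it at 76 bases. Of the 38 genes, 29 had a promoter entry. Over windows of 250 bases before to 50 after the start, TATAAA was found in 4 of the 29 (13.8%), against 14.2% of 33469 windows of all genes. CCAAT was found in 9 of 29 (31%), against 37.5%, and GGGCGG in 14 of 29 (48.3%), against 33.1%. The collagen share counts genes with the motif in any of their windows, and the share over all genes counts windows, so the units differ. A match is a run of letters and not a bound site.

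Most of the abundant collagen genes were at a far higher level in the heart than in the kidney, and a few chains were the other way round. Of the 18 genes that averaged 1 FPKM or more across the 20 libraries, 13 were higher in the left ventricle and 4 lower (limma, Benjamini-Hochberg adjusted p under 0.05). Genes that differ between these organs are common: 41.0% of 12984 tested genes were called higher in the heart and 43.6% lower. The median log2 difference of the 18 collagen genes, heart minus kidney, was 2.49, against -0.03 over all tested genes. The ranges over the 10 libraries of each organ did not overlap for 12 of the 18 genes with the heart higher and for 2 with the heart lower, where the share over all tested genes was 27.1% and 29.8%. The filter is on the mean of both organs, so a gene high in either could pass. With no filter, 27 of all 38 were called, 18 higher in the heart and 9 lower, where 30% of 23499 genes in the same fit were called higher and 32.9% lower.

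**Figure D1:**
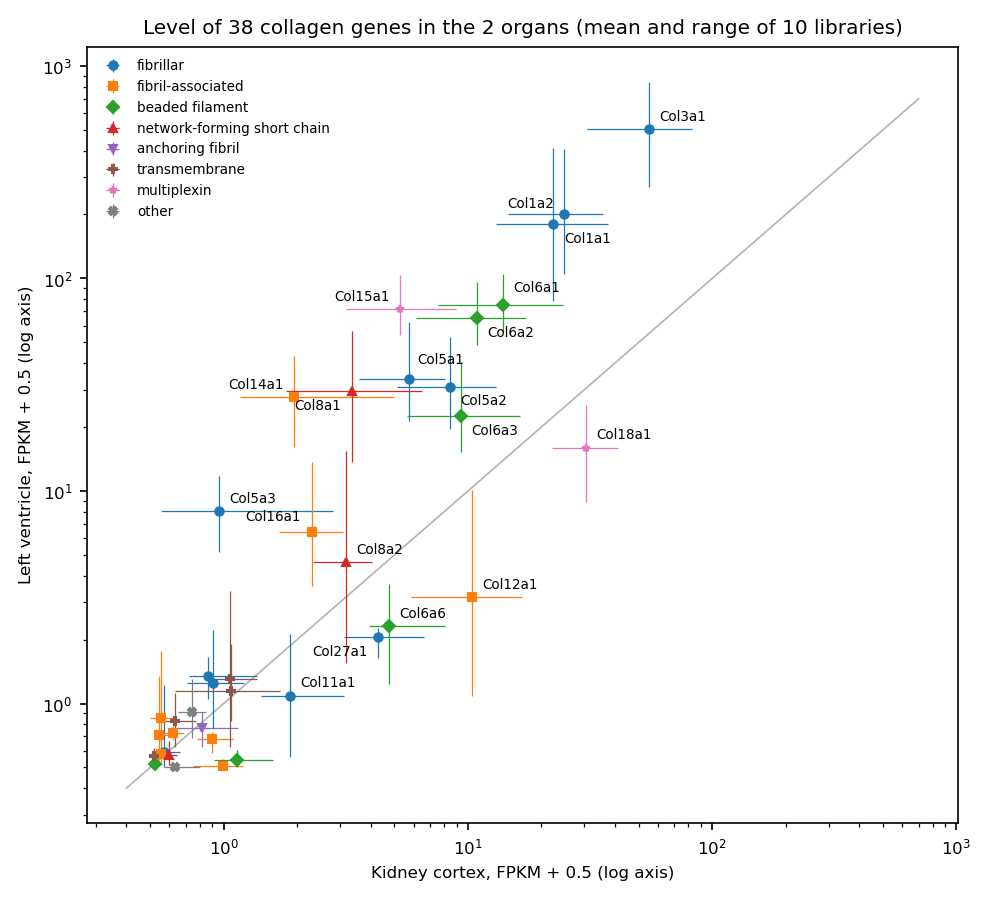
Level of each of the 38 collagen genes in the left ventricle (vertical, FPKM + 0.5, log axis) against the kidney cortex (horizontal, FPKM + 0.5, log axis). Points are means and bars the range of 10 libraries per organ, colour and shape give the structural class, and the line marks equal levels. Col3a1, Col1a1 and Col1a2 lie at the upper right above the line, and Col12a1, Col18a1, Col6a6 and Col27a1 below it.

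The fibrillar chains carried most of the signal. Col3a1 (ENSRNOG00000003357), the only chain of type III collagen, ranged from 270 to 837 FPKM in the hearts with a median of 486, against 30.3 to 82.4 FPKM in the kidneys with a median of 52.8. It was 8.93-fold higher in the heart, a log2 difference of 3.16 ± 0.21 (SE; limma, adjusted p = 1.74e-11). Col1a2 ranged from 105 to 408 FPKM with a median of 190.0 in the hearts, against 14.1 to 35.1 FPKM with a median of 24.3 in the kidneys, which is 7.57-fold higher in the heart. Col1a1 ranged from 78.2 to 408 FPKM with a median of 160 in the hearts, against 12.5 to 37.1 FPKM with a median of 21.1 in the kidneys, which is 7.38-fold higher. Every heart lay above every kidney in these genes. The 3 most abundant chain genes made up 68.9% of the summed mean FPKM of all 38 in the heart (Col3a1, Col1a2 and Col1a1), against 50.8% in the kidney (Col3a1, Col18a1 and Col1a2). The chains of type V collagen, which is built into type I fibrils and limits their width, followed the same order: Col5a1 was 5.64-fold and Col5a2 3.62-fold higher in the heart. Col5a3 was 9.05-fold higher on the scale of the test, log2(FPKM + 0.5), which shrinks the fold of low genes. By mean FPKM it was 16.5-fold higher. It was at 4.68 to 11.3 FPKM in the hearts and 0.0550 to 2.30 FPKM in the kidneys, and only the kidney of RB039 was above 0.340 FPKM. Col27a1, a fibrillar chain best known from cartilage, went the other way: it ranged from 1.14 to 1.77 FPKM in the hearts, against 2.62 to 6.10 FPKM in the kidneys, a log2 difference of -1.03 ± 0.11 (adjusted p = 1.92e-08).

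Fibril-associated chains, whose proteins coat fibrils, split by gene. Col14a1, whose protein binds the proteoglycan decorin on fibrils, had the largest difference of the 18, with 15.6 to 42.7 FPKM in the hearts and 0.670 to 4.50 FPKM in the kidneys, a log2 difference of 3.90 ± 0.22 (adjusted p = 7.81e-13). Col16a1 was 2.66-fold higher in the heart. Col12a1, a close relative of Col14a1, ranged from 0.584 to 9.57 FPKM in the hearts with a median of 1.73, against 5.33 to 16.2 FPKM in the kidneys with a median of 9.51. That is a log2 difference of -1.999 ± 0.34 (adjusted p = 1.79e-05), although the range of the hearts overlapped that of the kidneys through the heart of RB035.

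The beaded filaments of type VI collagen surround cells and link them to the interstitium. Their Col6a1 and Col6a2 chains were 5.58-fold and 6.03-fold higher in the heart, and Col6a3 2.40-fold higher. Col6a6, an alternative to Col6a3, was 0.731 to 3.15 FPKM in the hearts, against 3.43 to 7.59 FPKM in the kidneys, a log2 difference of -1.08 ± 0.16 (adjusted p = 2.31e-06). Col6a5, its neighbour on chromosome 8, was 0 to 0.102 FPKM in the hearts and 0.410 to 1.10 FPKM in the kidneys, without overlap. Col6a4, the remaining alternative chain, was at 0.0204 FPKM on average in the hearts and 0.0220 FPKM in the kidneys (log2 difference -0.0040 ± 0.02, limma adjusted p = 0.876 without the filter). Within type VI, the 3 common chains were thus higher in the heart, and Col6a6 and Col6a5, but not Col6a4, in the kidney.

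The multiplexins are basement membrane collagens whose ends can be released as fragments that act on vessels, endostatin in the case of Col18a1. Here the 2 genes went opposite ways. Col15a1 ranged from 53.5 to 103 FPKM in the hearts, against 2.66 to 8.46 FPKM in the kidneys, a log2 difference of 3.78 ± 0.18 (adjusted p = 5.62e-14). Col18a1 ranged from 8.34 to 24.9 FPKM in the hearts, against 21.7 to 40.7 FPKM in the kidneys, a log2 difference of -0.99 ± 0.18 (adjusted p = 3.27e-05), and the hearts of RB031 and RB035 lay within the range of the kidneys. Of the network-forming short chains, Col8a1, a chain of vessel walls and valves, was 8.58-fold higher in the heart. Its partner Col8a2 was 1.05 to 14.9 FPKM in the hearts and 1.82 to 3.56 FPKM in the kidneys, and its log2 difference of 0.19 ± 0.33 did not pass the test (adjusted p = 0.606; 95% interval -0.50 to 0.87).

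Of the 38 genes, 19 did not reach a mean of 1 FPKM in either organ, and 13 of these were under 1 FPKM in every library. Their highest value was 2.87 FPKM, for the transmembrane chain Col13a1 in the heart of RB035. The mean was higher in the heart for 12 and in the kidney for 7. Without the filter, Col24a1 (log2 difference 0.66 ± 0.10), Col9a3 (0.53 ± 0.17), Col23a1 (0.36 ± 0.12), Col20a1 (0.23 ± 0.04) and Col25a1 (0.12 ± 0.03) were called higher in the heart. Col6a5 (-1.04 ± 0.09), Col9a1 (-0.95 ± 0.06), Col9a2 (-0.39 ± 0.07) and Col26a1 (-0.33 ± 0.05) were called lower. So was Col11a1 (-0.91 ± 0.25), which is not one of the 19: it averaged 1.37 FPKM in the kidneys and 0.588 FPKM in the hearts. At these levels the added 0.5 FPKM shrinks the differences. Col9a1, Col9a2 and Col9a3, whose chains form type IX collagen of cartilage, therefore did not share a direction.

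The other genes of collagen production are given by list, where 41.0% of all tested genes were called higher in the heart and 43.6% lower. Of 18 tested genes that modify and fold the chains, 11 were higher in the heart and 4 lower, with a median log2 difference of 0.55. Of 9 tested genes for propeptide cleavage and cross-linking, 8 were higher and 0 lower (median 1.53), of 14 fibril-binding proteins 13 were higher and 0 lower (2.30), and of 5 collagen receptors 3 were higher and 2 lower (0.47). Markers of several stromal and vascular cell types moved with them. Of the fibroblast markers 8 of 9 were called higher in the heart, and their sum was 623 to 1580 FPKM in the hearts, against 115 to 197 FPKM in the kidneys. The fibroblast list holds Dcn, Lum and Dpt, which the fibril-binding list holds too. All 8 mural cell markers were called higher in the heart (summed level 404 to 588 FPKM in the hearts, against 68.2 to 151 FPKM in the kidneys), as were all 7 endothelial markers (272 to 359 FPKM in the hearts, against 63.6 to 92.9 FPKM in the kidneys). The part of these cell types in the organ difference was not tested.

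In the kidney, no collagen gene passed the test between MaR1 and vehicle. Of 18 tested genes, 0 were called by limma, and 1 had an unadjusted p under 0.05; over all 12446 tested genes 0 were called (0.0%) and 840 had an unadjusted p under 0.05. With limma voom on the recovered fragments, 0 were called too. The log2 difference was above 0 for 11 genes and below 0 for 7, with a median of 0.04, against 0.00 over all tested genes. The median was -0.10 without vehicle rat RB034 and 0.19 without vehicle rat RB030.

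**Figure D2:**
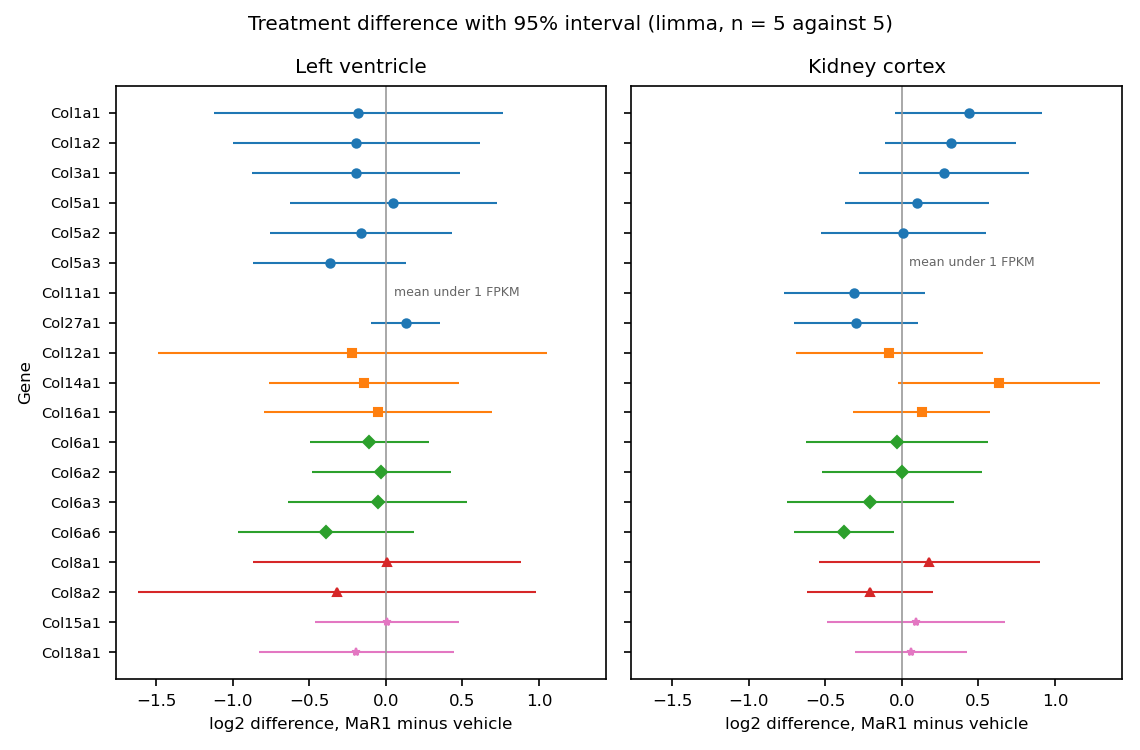
Log2 difference of MaR1 minus vehicle (horizontal axis) for the 19 collagen genes tested in at least 1 organ, in the left ventricle on the left and the kidney cortex on the right. Points are limma estimates and bars 95% intervals, with 5 rats per group; colour and shape give the structural class. All intervals include 0 except that of Col6a6 in the kidney.

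The fibrillar genes of types I and III had values above 0 in the kidney. Col1a1 was at 22.0, 18.8, 23.7, 24.3 and 37.1 FPKM in MaR1 kidneys, against 26.7, 14.1, 19.6, 20.2 and 12.5 FPKM in vehicle kidneys. The highest and the lowest kidney belonged to different groups, and the groups overlapped. The log2 difference was 0.44 ± 0.22 (95% interval -0.04 to 0.92; limma adjusted p = 0.753; exact permutation p = 0.143). Col1a2 was at 25.7, 20.5, 29.1, 24.2 and 35.1 FPKM in MaR1 kidneys, against 29.9, 18.2, 22.3, 24.4 and 14.1 FPKM in vehicle kidneys (log2 difference 0.32 ± 0.19, limma adjusted p = 0.807). Col3a1 was at 53.2, 44.8, 65.0, 49.8 and 82.4 FPKM in MaR1 kidneys, against 79.6, 35.4, 52.3, 54.2 and 30.3 FPKM in vehicle kidneys (0.28 ± 0.25, adjusted p = 0.870). In each of these genes the MaR1 kidney of RB039 was the highest of all and the vehicle kidney of RB034 the lowest. Without RB039, the difference of Col1a1 was 0.29.

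Col14a1 had the largest difference of the tested genes in the kidney. It was at 1.35, 1.42, 0.817, 1.65 and 4.50 FPKM in MaR1 kidneys, against 1.22, 0.725, 1.06, 0.957 and 0.670 FPKM in vehicle kidneys. The kidney of RB039, which also had the highest adipocyte and urothelial markers, stood far above the rest, and the groups overlapped. The log2 difference was 0.63 ± 0.30 (limma, adjusted p = 0.753; exact permutation p = 0.0556), and 0.34 without RB039. Col5a3, under the filter in the kidney, showed the same animal: it was at 0.268, 0.321, 0.315, 0.272 and 2.30 FPKM in MaR1 kidneys, against 0.340, 0.167, 0.203, 0.315 and 0.0550 FPKM in vehicle kidneys. The part of adipose or urothelial tissue in these values was not tested.

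Col6a6 was the only one of the 18 whose MaR1 and vehicle kidneys did not overlap; over all tested genes 1.23% did not. It was at 3.71, 3.43, 3.50, 3.50 and 3.74 FPKM in MaR1 kidneys, against 7.59, 4.18, 4.00, 4.99 and 3.96 FPKM in vehicle kidneys. All MaR1 kidneys lay within a narrow band just below the lowest vehicle kidney, and the vehicle kidney of RB030 stood well above the others. The log2 difference was -0.38 ± 0.15 (limma, p = 0.0263, adjusted p = 0.715), and the exact permutation p was 0.00794, the smallest that 5 against 5 allows. Groups without overlap always give this smallest value, so the permutation result restates the absence of overlap and adds no further evidence. It was also not adjusted for the 18 genes. Without RB030 the difference was -0.23. As the file gives positions, in a build not named in the sources used here, Col6a6 (ENSRNOG00000023007) spans 106306422 to 106473472 of chromosome 8, beside Col6a5 and Col6a4. Several marker lists differed between the groups of kidneys as well, with 0 genes called in any of them. Podocyte markers had sums of 47.9 to 80.2 FPKM, against 75.5 to 113 FPKM in vehicle kidneys, and all 5 tested ones had a log2 difference below 0 with an unadjusted p under 0.05 in limma. Genes that mark thin limbs and the inner medulla had sums of 59.5 to 238 FPKM in MaR1 kidneys, against 46.2 to 124 FPKM in vehicle kidneys; all 5 tested ones were above 0 (median log2 difference 1.05), 4 of them with an unadjusted p under 0.05. The difference was also above 0 for all 4 tested urothelial markers (median 2.19), all 6 adipocyte markers (1.77) and 6 of 7 mural cell markers (0.39). The part of these tissues in the kidney values was not tested.

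Col27a1 was at 2.94, 3.09, 4.21, 2.97 and 3.22 FPKM in MaR1 kidneys, against 6.10, 2.62, 5.07, 4.18 and 3.47 FPKM in vehicle kidneys. The groups overlapped, and the log2 difference was -0.30 ± 0.18 (limma, adjusted p = 0.807). Col12a1 was at 11.0, 7.73, 12.9, 9.10 and 6.16 FPKM in MaR1 kidneys, against 16.2, 7.64, 9.92, 12.6 and 5.33 FPKM in vehicle kidneys, with the highest and the lowest value in the vehicle group. Col18a1 was at 31.1, 29.98, 33.7, 36.4 and 21.7 FPKM in MaR1 kidneys, against 40.7, 27.4, 23.3, 31.05 and 24.9 FPKM in vehicle kidneys. Of the genes under the filter, Col17a1, a transmembrane chain that anchors epithelia, and Col7a1, the anchoring fibril chain, had an unadjusted p under 0.05 in a limma fit of all genes. In that fit 3 of 38 collagen genes had such a p, Col6a6 among them, against 1331 of 22442 over all genes. Col17a1 ranged from 0.504 to 1.20 FPKM in MaR1 kidneys, against 0.129 to 0.744 FPKM in vehicle kidneys (log2 difference 0.49 ± 0.19, limma adjusted p = 0.823). Its 3 highest kidneys, RB038 and RB036 of the MaR1 group and RB034 of the vehicle group, at 1.20, 0.805 and 0.744 FPKM, were among the 4 with urothelial markers over 1 FPKM, and the remaining one of these, RB039, was at 0.504 FPKM. The part of urothelium in these values was not tested. Col7a1 ranged from 0.260 to 0.645 FPKM in MaR1 kidneys, against 0.135 to 0.338 FPKM in vehicle kidneys (0.35 ± 0.13, adjusted p = 0.823).

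Of the genes that process and bind collagen, 0 were called in the kidney. Adamts2, the protease that removes the amino-terminal propeptide of fibrillar procollagens, averaged 2.09 ± 0.40 FPKM in MaR1 kidneys and 1.22 ± 0.25 FPKM in vehicle kidneys (SD, n = 5 each). The lowest MaR1 kidney was at 1.56 FPKM and the highest vehicle kidney at 1.48 FPKM, so the groups did not overlap, as in 1.23% of all tested genes. Adamts2 had the smallest p of the 8 tested genes of its list. Its log2 difference of 0.59 ± 0.14 had an unadjusted p of 0.00147 and an adjusted p of 0.575 in limma. Tll1, a protease of the carboxy-terminal propeptide, averaged 1.41 ± 0.20 FPKM in MaR1 kidneys and 1.02 ± 0.14 FPKM in vehicle kidneys (0.33 ± 0.11, limma adjusted p = 0.663). Aspn, a small proteoglycan that binds fibrils, averaged 1.61 ± 0.70 FPKM in MaR1 kidneys and 0.823 ± 0.17 FPKM in vehicle kidneys (0.62 ± 0.22, adjusted p = 0.681). Itga1, a subunit of a collagen-binding integrin, averaged 17.4 ± 2.73 FPKM in MaR1 kidneys and 22.4 ± 4.65 FPKM in vehicle kidneys (-0.35 ± 0.15, adjusted p = 0.721). The collagen receptor gene Ddr1 (-0.15), Colgalt2, a galactosyltransferase of collagen (-0.38), the prolyl hydroxylase gene P3h1 (-0.13) and the decorin gene Dcn (0.19) completed the named genes, with adjusted p of 0.753 to 0.866. By list, the difference was above 0 for 11 of 18 modifying and folding genes, 4 of 8 cleavage and cross-linking genes, 6 of 11 fibril-binding genes and 1 of 5 receptors.

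In the heart, no collagen gene passed the test either. Of 18 tested genes, 0 were called by limma and 0 by limma voom, and 0 had an unadjusted p under 0.05; over all 12237 tested genes 0 were called (0.0%) and 563 had an unadjusted p under 0.05. The log2 difference was above 0 for 4 genes and below 0 for 14, with a median of -0.15, against 0.01 over all tested genes. The median was -0.37 without MaR1 rat RB035 and 0.03 without MaR1 rat RB036, so single hearts moved it to either side of 0. In 0 of the 18 genes were the groups free of overlap, where the share over all tested genes was 0.842%. Of the marker genes 0 were called between the groups of hearts, but some lists leaned to the same side. Proximal tubule genes had sums of 9.32 to 61.9 FPKM in MaR1 hearts, against 2.53 to 12.3 FPKM in vehicle hearts. All 3 tested ones had a log2 difference above 0, and 2 had an unadjusted p under 0.05 in limma. All 4 tested atrial markers had a difference below 0 (median -1.87), but 0 of them had such a p. The fibroblast markers stayed near all genes: 6 of 9 were above 0, 0 had such a p, and the median was 0.06, against 0.01 over all tested genes. The part of these tissues in the heart values was not tested.

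Col1a1 was at 408, 78.2, 116, 178 and 109 FPKM in MaR1 hearts, against 164, 155, 88.8, 287 and 207 FPKM in vehicle hearts. The MaR1 group held both the highest and the lowest heart. Col1a2 was at 408, 105, 136, 196 and 126 FPKM in MaR1 hearts, against 184, 198, 110, 306 and 230 FPKM in vehicle hearts. Col3a1 was at 837, 270, 365, 544 and 370 FPKM in MaR1 hearts, against 560, 456, 316, 787 and 516 FPKM in vehicle hearts. Their log2 differences were -0.18 ± 0.43 for Col1a1, -0.19 ± 0.37 for Col1a2 and -0.20 ± 0.31 for Col3a1 (limma, adjusted p = 1.0 each). The 95% interval of Col1a1 ran from -1.12 to 0.76.

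The smallest p among the tested genes in the heart was that of Col5a3. It was at 9.83, 4.68, 5.61, 7.67 and 4.84 FPKM in MaR1 hearts, against 11.3, 6.52, 6.77, 11.3 and 6.73 FPKM in vehicle hearts. Of the MaR1 hearts, 3 lay below all vehicle hearts, and the log2 difference was -0.37 ± 0.23 (exact permutation p = 0.190). Col6a6 was at 3.15, 0.731, 1.19, 1.33 and 1.36 FPKM in MaR1 hearts, against 1.40, 2.24, 1.90, 1.82 and 2.94 FPKM in vehicle hearts. Of the MaR1 hearts, 4 lay below every vehicle heart and RB035 lay above them all; the log2 difference was -0.39 ± 0.26 (exact permutation p = 0.230), and -0.62 without RB035. Col27a1 was at 1.72, 1.61, 1.44, 1.77 and 1.65 FPKM in MaR1 hearts, against 1.67, 1.36, 1.14, 1.56 and 1.57 FPKM in vehicle hearts, with a log2 difference of 0.13 ± 0.10.

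The other abundant chains in the heart overlapped between groups. Col6a1 was at 104, 55.6, 65.5, 78.2 and 59.4 FPKM in MaR1 hearts, against 77.7, 70.7, 64.6, 102 and 70.9 FPKM in vehicle hearts. Col15a1 was at 103, 53.5, 62.9, 80.7 and 56.3 FPKM in MaR1 hearts, against 62.9, 56.8, 54.8, 101 and 77.8 FPKM in vehicle hearts. Both genes were highest in RB035 and next in RB033. Col14a1 was at 42.4, 15.6, 22.8, 32.2 and 18.3 FPKM in MaR1 hearts, against 26.2, 25.7, 18.1, 42.7 and 28.3 FPKM in vehicle hearts. Col8a1 was at 55.9, 14.01, 23.6, 37.96 and 17.6 FPKM in MaR1 hearts, against 28.3, 27.4, 13.2, 47.6 and 24.8 FPKM in vehicle hearts. Col18a1 was at 22.8, 8.87, 12.8, 13.0 and 13.9 FPKM in MaR1 hearts, against 14.4, 24.9, 8.34, 20.6 and 15.1 FPKM in vehicle hearts. Col12a1 was at 9.57, 0.584, 1.21, 1.73 and 1.01 FPKM in MaR1 hearts, against 1.73, 2.19, 0.633, 4.00 and 3.90 FPKM in vehicle hearts. Its spread was wide, and the interval of its log2 difference ran from -1.49 to 1.05. Of the genes under the filter, Col10a1, a short chain of growth plate cartilage, had an unadjusted p of 0.00820 in a limma fit of all genes (log2 difference -0.20 ± 0.06, adjusted p = 0.987), at 0.0151 to 0.0776 FPKM in MaR1 hearts and 0.0422 to 0.165 FPKM in vehicle hearts. These values rest on 1 to 6 fragments per MaR1 heart and 4 to 12 per vehicle heart. In that fit 1 of 38 collagen genes had an unadjusted p under 0.05, against 973 of 21725 over all genes.

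**Figure D3:**
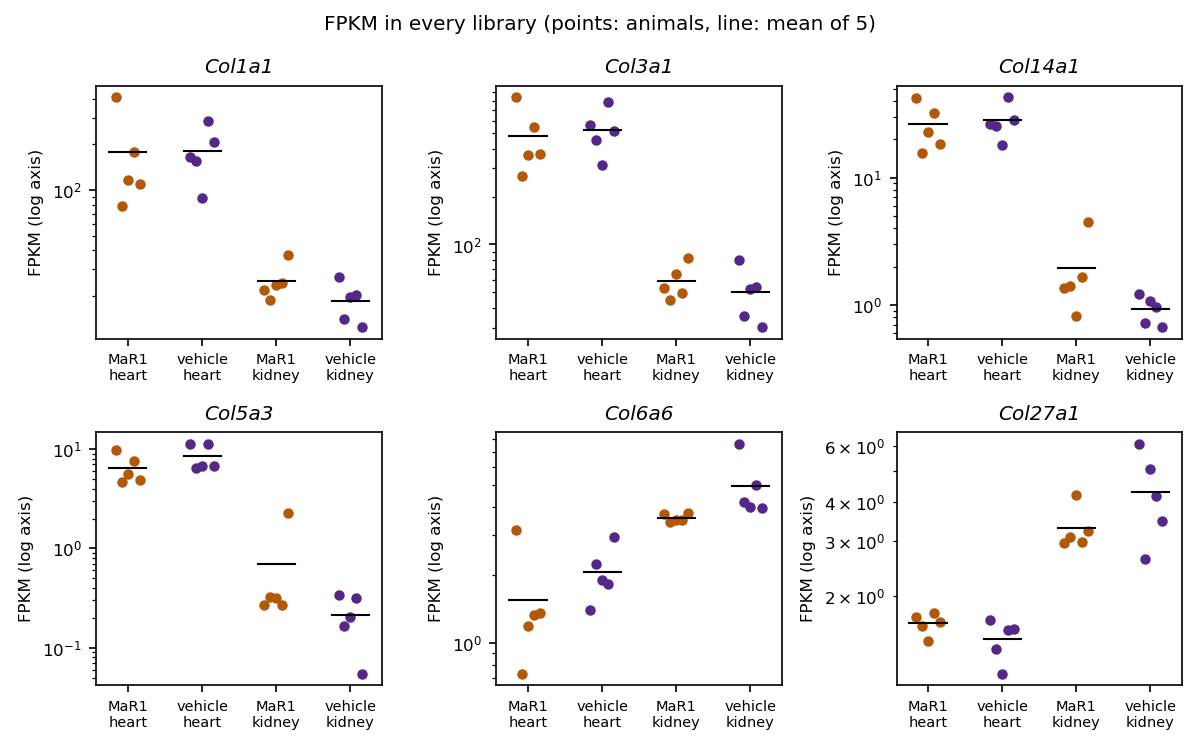
FPKM (log axis) of Col1a1, Col3a1, Col14a1, Col5a3, Col6a6 and Col27a1 in every library. Points are rats and horizontal lines the mean of 5; MaR1 stands left of vehicle in each organ. Col6a6 in the kidney is the only panel pair without overlap, and the MaR1 kidney of RB039 stands apart in Col14a1 (4.50 FPKM) and Col5a3 (2.30 FPKM).

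Genes for collagen processing were not called in the heart. P4ha2, a prolyl hydroxylase subunit that stabilises the helix, averaged 13.6 ± 1.26 FPKM in MaR1 hearts and 11.5 ± 1.33 FPKM in vehicle hearts (log2 difference 0.24 ± 0.09, limma adjusted p = 1.0). Serpinh1, the collagen chaperone, averaged 188 ± 32.8 FPKM in MaR1 hearts and 170.0 ± 22.4 FPKM in vehicle hearts. Lum, a fibril-binding proteoglycan, averaged 49.6 ± 37.4 FPKM in MaR1 hearts and 55.6 ± 17.8 FPKM in vehicle hearts, and fibronectin, Fn1, averaged 37.7 ± 24.4 FPKM in MaR1 hearts and 49.8 ± 31.3 FPKM in vehicle hearts. The remaining named genes were the lysyl oxidase gene Loxl4 (0.26), the protease gene Tll1 (-0.31) and the receptor genes Ddr1 (-0.10) and Ddr2 (0.22). By list, the difference was above 0 for 14 of 18 modifying and folding genes, 3 of 9 cleavage and cross-linking genes, 3 of 14 fibril-binding genes and 3 of 6 receptors, and 0 were called in any of them.

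Whether the response to MaR1 differed between the organs was tested as the MaR1 difference in heart minus that in kidney. Of 18 collagen genes, 0 were called by limma or limma voom; 1 had an unadjusted p under 0.05. Over all 12984 tested genes 0 were called (0.0%) and 714 had an unadjusted p under 0.05. The difference of responses was below 0 for 16 genes and above 0 for 2, with a median of -0.15, against 0.01 over all tested genes. The median was -0.43 without rat RB035 and 0.05 without rat RB034. Col5a3 had the smallest p (-0.90 ± 0.43, limma adjusted p = 0.903), and its value was -0.45 without RB039. Col27a1 (0.43 ± 0.21, limma adjusted p = 0.908) and Col14a1 (-0.77 ± 0.43, adjusted p = 0.939) came next, and Col14a1 was at -0.37 without RB039.

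The rats within a group differed from each other in collagen far more than in most genes, which limits these comparisons. After removal of group means, the standard deviation on the log2 scale had a median of 0.52 over the 18 collagen genes in the heart, against 0.17 over all tested genes, and 17 of 18 lay above that median of all genes. In the kidney it was 0.41, against 0.16, and all 18 lay above it. The steadiest collagen gene was Col27a1 in the heart (0.13) and Col6a6 in the kidney (0.26), and the most variable were Col8a2 in the heart (1.09) and Col8a1 in the kidney (0.59).

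**Figure D4:**
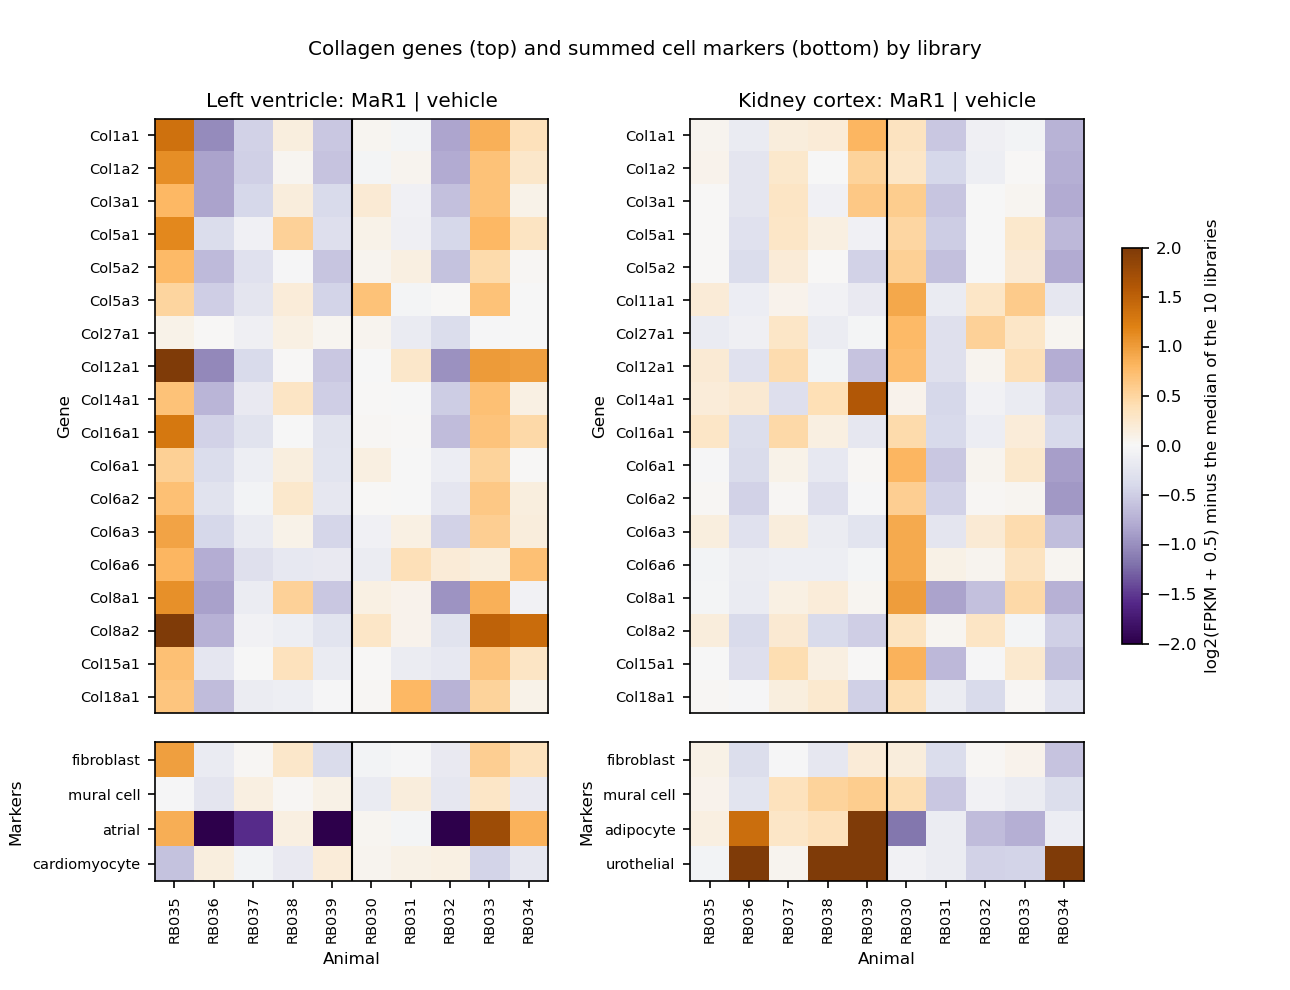
Log2(FPKM + 0.5) of each tested collagen gene minus its median over the 10 libraries of the organ (colour, limited to -2 and 2), with summed cell type markers on the same scale below. Columns are rats, with MaR1 left of vehicle in each organ. The hearts of RB035 and RB033 and the kidney of RB030 are high across nearly all collagen rows, and the heart of RB036 and the kidney of RB034 low.

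The same libraries were high or low across most of the family. In the heart, the MaR1 rat RB035 had the highest value of 10 in 14 of 18 genes, and its median log2 deviation from the organ median was 0.79. The vehicle heart of RB033 was among the top 2 in 15 genes (median deviation 0.69). The MaR1 heart of RB036 was the lowest in 12 genes (-0.65), and the vehicle heart of RB032 in 6 (-0.49). Summed over all 38 genes, MaR1 hearts reached 2298, 720, 951, 1346 and 898 FPKM, against 1286, 1180, 797, 1948 and 1360 FPKM in vehicle hearts. High and low hearts thus stood in both groups. RB035 and RB033 were also the hearts of lowest cardiomyocyte markers, and they had the highest fibroblast sums (1580 and 1196 FPKM, against 623 to 1030 FPKM in the other hearts). Their atrial markers summed to 5445 and 10082 FPKM, against 367 to 5342 FPKM in the others. The natriuretic peptide gene Nppa alone was at 4000 and 6698 FPKM in these 2 hearts. In the heart of RB030, with a sum of 3068 FPKM, Nppa was at 3022 FPKM but Myl7 at 0.318 FPKM. By Myl7, the heart of RB034 (529 FPKM) lay above that of RB035 (316 FPKM). The part of tissue makeup in the collagen levels was not tested. Without these 2 hearts, 0 of all 12179 tested genes were called by limma. Of the 18 collagen genes 1 had an unadjusted p under 0.05, against 883 over all tested genes. The median log2 difference of the collagen genes was -0.24, with 2 of 18 above 0.

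In the kidney, the vehicle rat RB030 was the highest of 10 in 13 of 18 genes and above the organ median in all 18 (median deviation 0.58). The vehicle kidney of RB034 was the lowest in 12 (-0.66), and that of RB031 was among the lowest 2 in 11 (-0.42). Summed over all 38 genes, MaR1 kidneys reached 217, 180, 247, 213 and 255 FPKM, against 314, 156, 204, 228 and 134 FPKM in vehicle kidneys. The vehicle group spanned the range of the MaR1 group. RB030 had the lowest proximal tubule sum, 3996 FPKM, against 6147 to 8467 FPKM in the other kidneys; the part of tissue makeup was not tested here either. Without the 4 kidneys with urothelial markers over 1 FPKM, only RB035 and RB037 remained in the MaR1 group. In that fit 0 collagen genes were called, and 0 of all 12466 tested genes. With so few MaR1 rats a call was unlikely in any case, so nothing is concluded from its absence. The median log2 difference of the collagen genes was 0.07, with 12 of 18 above 0.

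The heart of RB035 was also above the other 9 hearts in several other chains. Col2a1, the fibrillar chain of cartilage, was at 0.719 FPKM there, against 0 to 0.0551 FPKM in the other 9 hearts. Col22a1, a chain of tissue junctions, was at 0.850 FPKM, against 0.0402 to 0.479 FPKM, and Col9a3 at 1.27 FPKM, against 0.0522 to 0.624 FPKM. Col13a1 was at 2.87 FPKM, against 0.125 to 1.21 FPKM, and Col8a2 at 14.9 FPKM, against 1.05 to 6.82 FPKM. In all of these except Col2a1, the vehicle hearts of RB033 and RB034 came next.

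Most of the chain genes whose proteins assemble with each other varied together from rat to rat. This was not particular to partner chains: over all pairs of tested collagen genes, r was above 0 in 152 of 153 in the heart and 144 of 153 in the kidney. Over the 10 rats of each organ, 14 relations were examined with permutation tests, and 11 had an adjusted p under 0.05. Col1a1 and Col1a2 had a Pearson r of 0.995 in the heart (rho 0.96, permutation adjusted p = 8.4e-05) and 0.96 in the kidney (rho 0.93, permutation adjusted p = 8.4e-05). Without the 2 rats farthest from the median of Col1a1, r was 0.99 in the heart and 0.92 in the kidney. For Col1a1 and Col3a1, r was 0.98 in the heart and 0.94 in the kidney, and for Col5a1 and Col5a2 it was 0.91 in the heart and 0.96 in the kidney. For Col6a1 and Col6a2 it was 0.96 in the heart and 0.98 in the kidney, and for Col6a1 and Col6a3 0.93 in the heart and 0.94 in the kidney. The rho of these relations was 0.82 to 0.98, and their largest permutation adjusted p was 0.000308. Without the 2 farthest rats r was 0.76 to 0.97 in the heart and 0.79 to 0.93 in the kidney. Col6a1 and Col6a2 are also neighbours on chromosome 20, at 11905957 to 11924597 and 12021767 to 12057564 as the file gives positions.

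**Figure D5:**
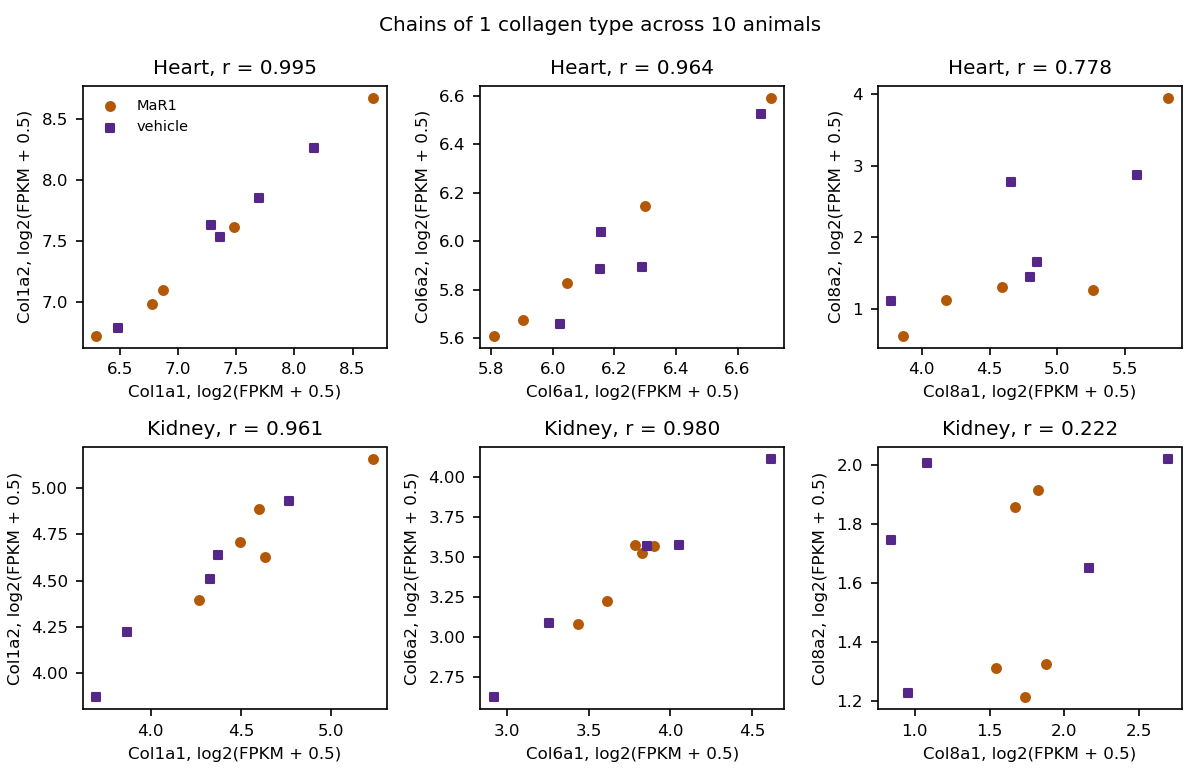
Log2(FPKM + 0.5) of 3 pairs of chains that share a trimer, Col1a1 with Col1a2, Col6a1 with Col6a2 and Col8a1 with Col8a2, in 10 hearts (top) and 10 kidneys (bottom). Points are rats, with shape and colour by treatment. The points of types I and VI fall along a line in both organs, and those of type VIII are scattered in the kidney (r = 0.222).

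For type VIII, Col8a1 and Col8a2 had r = 0.78 in the heart (rho 0.83, permutation adjusted p = 0.00911), which fell to 0.65 without 2 rats (permutation adjusted p = 0.102), so the call rests on those rats and the direction does not. In the kidney r was 0.22 (rho 0.25, permutation adjusted p = 0.537). The multiplexins Col15a1 and Col18a1 had r = 0.57 in the heart (rho 0.61, permutation adjusted p = 0.0905) and 0.63 in the kidney (rho 0.66, permutation adjusted p = 0.0549), and neither passed. As a description over all 153 pairs of tested genes, the median r was 0.89 in the heart, with 95 pairs above 0.8, and 0.68 in the kidney, with 45 pairs above 0.8. The points share libraries, and the part of depth and tissue makeup in these values was not tested. The gene least tied to the rest was Col27a1 in the heart (median r 0.40) and Col14a1 in the kidney (-0.05).

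Ratios between chains within a library cancel any factor common to both. Type I collagen holds more chains from Col1a1 than from Col1a2, while the Col1a1 messages were at or below the level of those of Col1a2 per length in most libraries. Col1a1 over Col1a2 was 0.875 ± 0.0928 in MaR1 hearts and 0.865 ± 0.0646 in vehicle hearts (SD, n = 5 each; exact permutation p = 0.881). It was 0.929 ± 0.0998 in MaR1 kidneys and 0.852 ± 0.0484 in vehicle kidneys (exact permutation p = 0.183, adjusted p = 0.492 over 6 comparisons). Col3a1 over Col1a1 was 3.02 ± 0.57 in MaR1 hearts and 3.03 ± 0.45 in vehicle hearts (exact permutation p = 0.929), and 2.36 ± 0.26 in MaR1 kidneys and 2.65 ± 0.21 in vehicle kidneys (exact permutation p = 0.0952, adjusted p = 0.492). Col6a1 over Col6a2 was 1.14 ± 0.04 in MaR1 hearts and 1.20 ± 0.11 in vehicle hearts (exact permutation p = 0.246), and 1.26 ± 0.06 in MaR1 kidneys and 1.29 ± 0.13 in vehicle kidneys (exact permutation p = 0.643). None of the 6 passed at an adjusted p of 0.05.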

How the data were processed

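Poly-A RNA sequencing libraries of 10 rats were used, 1 per organ, 20 in all, grouped by the labels with the rat as replicate. The deposited table holds FPKM made by the authors, for 30560 genes. Per the submitters' processing notes, the tools were fastp (version not given), HISAT2 2.0.5, StringTie 1.3.3b and featureCounts 1.5.0-p3; no build is named in the sources used here. Per the labels' protocols, libraries could be directional or not, so reads of a gene and its antisense partner may be mixed. The deposited FPKM were multiplied by gene length and by a factor fitted for each library. They came out as whole fragments, within 0.01, for 100% of 371175 values above 0, and totals were 19383232 to 30342034 fragments per library. The library size implied by the factor was above this total in every kidney and below it in every heart. For RB030 it was 34941948 against 27365595 in the kidney, and 22230340 against 24239346 in the heart. The part of this scaling in the organ differences was not tested. No pair of libraries in a group agreed within sampling noise (smallest chi-square per degree of freedom 9.68).

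Genes averaging 1 FPKM or more in the fitted libraries were tested on log2(FPKM + 0.5), a scale that understates changes of low genes, with limma 3.58.1 in R 4.3.3 (variance trend, two-sided, Benjamini-Hochberg adjustment over all tested genes, threshold 0.05). Treatment was fitted within each organ; a model of 4 group means gave the difference between organs and between responses. Exact permutation tests (two-sided, 252 splits) served for single genes and ratios, and 100000 permutations for correlations. The steps were tested on simulated data. Figures used matplotlib 3.10.9 and Python 3.11.15.

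The genes, lists, pairs and tests were chosen with earlier results of these data known. The rule for named genes took, of the collagen genes, the 6 of highest mean per organ, the 5 of smallest p per treatment comparison, the 3 of smallest p for the difference of responses and the 5 of largest organ difference in each direction, and the 2 genes of smallest p of each pathway list; other genes named were chosen after their values were seen. Of 141 list entries 135 matched; Crtap, Pcolce2, Ogn, Tnxb, Synpo, Pln and the collagen chain Col21a1 were not analysed here. Kidney and heart of a rat come from the same animal, which pairs the libraries; over 12984 genes their deviations from group means had correlations of -0.02 to 0.14. The rat as block was an alternative (statmod 1.5.0). Also tried were pseudocounts of 0.1 and 1, filters of none and of 5 FPKM, quantile scaling, voom on the recovered fragments and leaving out each rat. A joint model without block and fits without selected libraries were added after seeing the data. The treatment labels have no gene to be checked against.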

Additional observations from a re-analysis of the deposited data

Results flagged for a closer look

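Each group of 5 rats was examined for a rat far from the other 4, in 52 sets of values of the named collagen genes. A rat was listed where its gap to the nearest rat was over 0.710 of the whole range, which chance gives in about 1 in 20 groups. There were 6 such values. In MaR1 kidneys, Col14a1 was at 4.50 FPKM in RB039, against 0.817 to 1.65 FPKM in the others. Col5a3 was at 2.30 FPKM in the same kidney, against 0.268 to 0.321 FPKM. Col27a1 was at 4.21 FPKM in the kidney of RB037, against 2.94 to 3.22 FPKM. In MaR1 hearts, Col6a6 was at 3.15 FPKM in RB035, against 0.731 to 1.36 FPKM, and Col12a1 at 9.57 FPKM in the same heart, against 0.584 to 1.73 FPKM. In vehicle kidneys, Col6a6 was at 7.59 FPKM in RB030, against 3.96 to 4.99 FPKM.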

How the results depend on the processing

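Of 808 values recomputed under the alternatives, 791 stayed the same by the rule for their kind. Single differences, correlations and ratios had to keep their direction and side of the threshold, and counts their approximate size. A median difference had only to move by less than the median standard deviation of the collagen genes, whatever its sign. With 1 rat left out, the median MaR1 difference crossed 0 in the kidney (-0.10 to 0.19) and the heart (-0.37 to 0.03). The median difference of responses did so too (-0.43 to 0.05). With no filter on low values, 27 of 38 collagen genes were called between the organs in place of 17 of 18, since more genes were tested, and their median log2 difference was 0.24. Leaving out 1 rat at a time turned the sign of the correlation of Col8a1 with Col8a2 in the kidney (-0.074 to 0.42) and of 3 log2 ratios, MaR1 minus vehicle: Col1a1 over Col1a2 in the heart (-0.038 to 0.069), Col3a1 over Col1a1 in the heart (-0.082 to 0.12) and Col6a1 over Col6a2 in the kidney (-0.078 to 0.0049); the cause was not tested. The correlation of Col15a1 with Col18a1 passed the threshold in the kidney without RB039, RB031 or RB032 (0.76, 0.67 and 0.69) and in the heart without RB031 (0.87), and that of Col8a1 with Col8a2 in the heart no longer did without RB035 (0.66). Leaving out 1 rat gave 17 to 18 calls between the organs, 10 to 13 chain pairs and 0 treatment calls. Pairing the organs of a rat with the rat as block gave 0 collagen genes in the kidney, 0 in the heart, 0 for the difference of responses and 17 between the organs, so no call of a collagen gene changed; over all genes in the kidney 10 were called with the block and 10 in the same joint model of both organs without it. With 5 rats per group, the widest 95% interval of a treatment difference, that of Col8a2 in the heart, ran from -1.62 to 0.98 on the log2 scale.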
